A study of Homo sapiens with 18 samples.

Results

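The comparison described here is between 2 inhibitors of protein N-myristoylation, IMP1088 and DDD86481, in control IMR90 ER:RAS cells. It was defined by the labels alone, as the 3 libraries of control cells given IMP1088 against the 3 given DDD86481, which are 6 of the 18 libraries in the series. IMR90 cells are human lung fibroblasts of a long-established line, of wild-type genotype in the labels, and ER:RAS is a fusion of oncogenic RAS with the hormone-binding part of the oestrogen receptor that 4-hydroxytamoxifen (4OHT) switches on to induce senescence. All cells carried the fusion. The control cells received DMSO in place of 4OHT for 7 days, and then 300 nM IMP1088, 1.5 µM DDD86481 or DMSO alone for 3 days, and were collected on day 10. A parallel set of senescent cells received 100 nM 4OHT and the same doses. Because the doses of the inhibitors differ, compound and dose cannot be told apart in any value below. The labels do not say whether replicates came from separate cultures, so p-values measure only the spread between these libraries, and in bulk RNA fewer cells of a type and less RNA per cell cannot be told apart.

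N-myristoyltransferases attach the fatty acid myristate to the N-terminal glycine of proteins, usually after a methionine aminopeptidase has removed the first methionine. The acyl chain helps proteins such as the ARF GTPases, SRC-family kinases and MARCKS to reach membranes. ARF1 recruits the COPI coat to the Golgi, and cells with disturbed traffic between the Golgi and the endoplasmic reticulum (ER) switch on the unfolded protein response. 

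To ask whether the inhibitors gave different transcriptional responses in non-senescent cells, they were compared with each other directly. None of the 14341 genes tested (0%) differed between IMP1088 and DDD86481 at an adjusted p under 0.05 in edgeR's quasi-likelihood test, and the smallest adjusted p was 1. At an unadjusted p under 0.05 there were 141 genes (0.983%). Of these, 64 (0.446%) were higher and 77 (0.537%) lower with IMP1088. DESeq2 likewise passed 0 genes, with 118 at an unadjusted p under 0.05. Evenly spread p-values would put a share of 0.05 of genes there, so both counts were low, for a reason not tested. A fit of only the 6 libraries with the replicate number as a block, chosen after seeing the data, also passed 0 genes. It put 533 at an unadjusted p under 0.05. Against DMSO, in the same fit, 4829 genes (33.7%) passed with IMP1088, 2333 higher and 2496 lower, and 5242 (36.6%) passed with DDD86481, 2554 higher and 2688 lower. These last comparisons share their DMSO libraries. Fits of only the groups compared passed 2716 and 2842 genes. With upper quartile scaling 1900 were higher and 2918 lower with IMP1088, and 2088 higher and 3258 lower with DDD86481. The median absolute log2 difference over all genes was 0.0706 between the inhibitors, 0.288 between IMP1088 and DMSO and 0.306 between DDD86481 and DMSO. The median signed difference between the inhibitors was -0.0029.

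A p that misses the threshold does not show that the inhibitors act alike, so the 95% interval of each difference was used to give the range of differences that the data allow. These intervals are per gene and not adjusted for the number of genes. The size of difference that the adjusted test could have passed was not tested. The interval lay within 1.5-fold in both directions for 10632 genes (74.1%) and within 2-fold for 12637 (88.1%). The precision followed expression, given in CPM, counts scaled to a common library size. Of the 2027 genes at 100 CPM or more, 97.7% had an interval within 1.5-fold, and of the 7313 genes between 10 and 100 CPM, 97.3% did. Of the 3192 genes between 1 and 10 CPM, 48.1% were bounded within 1.5-fold and 92.95% within 2-fold. Among the 1809 genes under 1 CPM, 18.3% were bounded within 2-fold and 0 within 1.5-fold. At 10 CPM or more, 0 genes differed by over 1.5-fold as a point estimate. Of the 161 genes whose point estimate passed 2-fold, 160 lay under 1 CPM and the other was MIR4426.

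**Figure D1:**
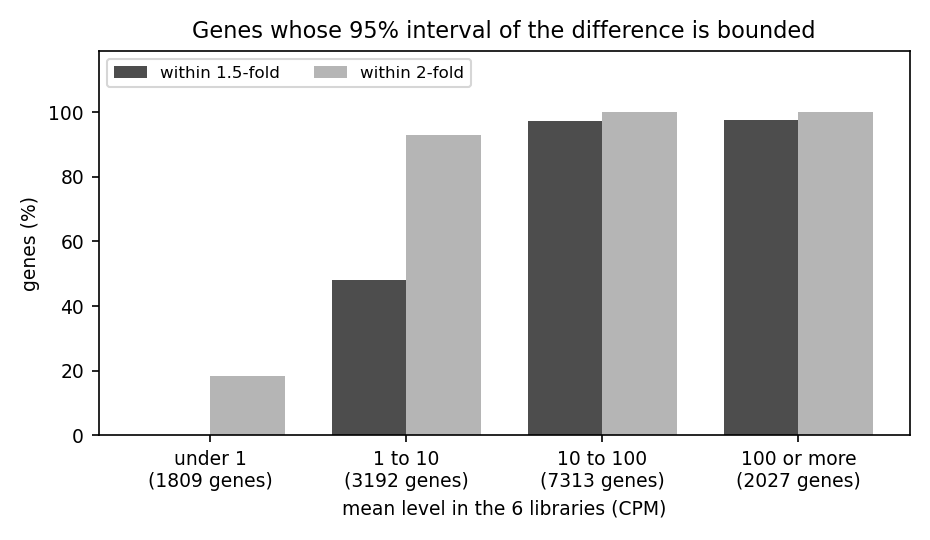
Share of genes (percent) whose 95% interval of the difference between IMP1088 and DDD86481 lies within 1.5-fold (dark bars) or 2-fold (light bars), by mean CPM of the 6 libraries. Above 10 CPM nearly all genes are bounded within 1.5-fold, against 0 of the 1809 genes under 1 CPM.

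**Figure D2:**
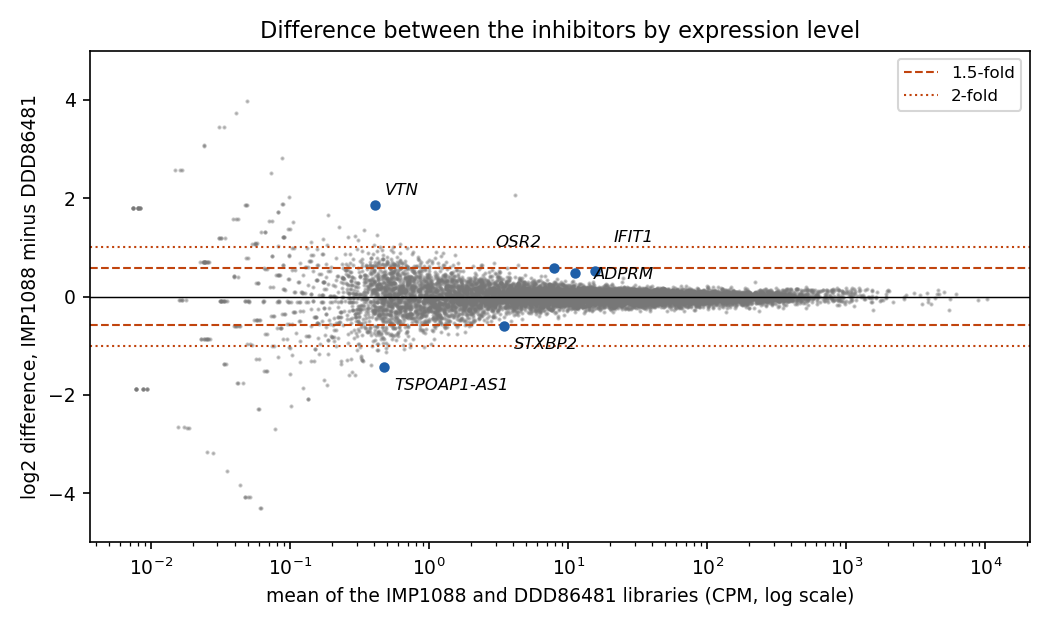
Log2 difference, IMP1088 minus DDD86481 (n = 3 and 3 libraries), against mean CPM on a log axis, with 1 point per gene and dashed and dotted lines at 1.5-fold and 2-fold. Points spread widely under 1 CPM and stay inside the 1.5-fold lines at 10 CPM and above, where IFIT1 has the largest difference.

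Distances between whole libraries likewise placed the inhibitors closer to each other than to DMSO. The root mean square log2 difference over 12607 genes ran from 0.239 to 0.271 between IMP1088 libraries and from 0.245 to 0.299 between DDD86481 libraries. Between an IMP1088 and a DDD86481 library it ran from 0.201 to 0.286, a range that overlaps both. Distances from DMSO libraries ran from 0.516 to 0.766 for IMP1088 and from 0.503 to 0.774 for DDD86481. In a principal component analysis of the 9 control libraries the first component carried 66.9% of the variance, with scores from 26.3 to 56.5 for DMSO and from -24.7 to -15.3 for the 6 inhibitor libraries. DMSO replicate 3 stood apart at 56.5, with distances of up to 0.535 from the other DMSO libraries. It enters the direct comparison only through the shared estimate of the spread. The smallest distance of all, 0.201, was between IMP1088 replicate 2 and DDD86481 replicate 2. Across the inhibitors, the pairs of replicates 1 and of replicates 3 were at 0.238 and 0.223. All same-numbered distances lay below every distance within an inhibitor, where no pair shares a replicate number. So did IMP1088 replicate 1 with DDD86481 replicate 3, at 0.226.

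**Figure D3:**
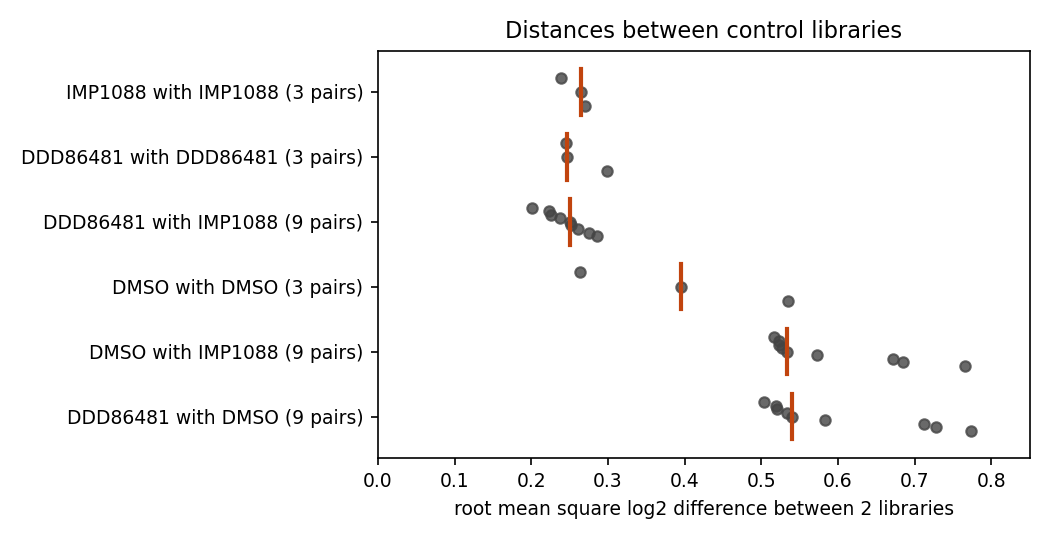
Root mean square log2 difference between every 2 of the 9 control libraries, with 1 point per pair and a vertical line at the median of each kind of pair. The 9 pairs across the inhibitors (0.201 to 0.286) overlap pairs of the same inhibitor (0.239 to 0.299) and reach below them. Pairs of an inhibitor with a DMSO library all lie above 0.5, while the 3 DMSO pairs run from 0.263 to 0.535.

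Transcripts of the targets themselves overlapped between the inhibitors. NMT1, the main N-myristoyltransferase, was at 176, 156 and 177 CPM with IMP1088, 191, 156 and 174 with DDD86481 and 157, 141 and 153 with DMSO. The inhibitor libraries overlapped, and the difference between them was -0.03 on the log2 scale (95% interval -0.21 to 0.14). NMT2, its paralogue, was at 18.7, 23.2 and 19.4 CPM with IMP1088, 18.4, 22.7 and 16.5 with DDD86481 and 34.1, 38.9 and 45.8 with DMSO. NMT2 fell with both against DMSO, with log2 changes of -0.95 ± 0.13 (SE, adjusted p = 2.03e-05, edgeR) and -1.04 ± 0.14 (adjusted p = 8.15e-06), and the difference between the inhibitors was 0.09 (-0.19 to 0.38). The methionine aminopeptidases METAP1 and METAP2 differed by -0.01 (-0.18 to 0.17) and 0.06 (-0.25 to 0.37). All 9 genes of the N-myristoylation list had an interval within 1.5-fold.

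Of the 43 genes tested that encode N-myristoylated proteins, 40 had an interval within 1.5-fold and the median difference was 0.01, against -0.0029 over all genes. ARF1, the GTPase that recruits COPI, was at 478, 449 and 531 CPM with IMP1088 and 516, 441 and 481 with DDD86481, a difference of 0.02 (-0.16 to 0.20). ARF4, a class II ARF of the early secretory pathway, was at 757, 755 and 909 CPM with IMP1088, 883, 665 and 750 with DDD86481 and 355, 398 and 498 with DMSO. ARF4 thus lay above every DMSO library in all 6 inhibitor libraries, which overlapped among themselves. All 21 genes of COPI transport were bounded within 1.5-fold. COPB2, a coat subunit, was at 476, 429 and 495 CPM against 515, 423 and 478, a difference of -0.02 (-0.19 to 0.16).

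Most ER chaperone genes were higher than with DMSO with both inhibitors, and HSPA5 spread widely between the replicates of DDD86481. HSPA5, the main Hsp70 chaperone of the ER, was at 1872, 1716 and 2137 CPM with IMP1088, 2525, 1403 and 1869 with DDD86481 and 780, 860 and 825 with DMSO. DDD86481 replicate 1 was the highest of the 6 inhibitor libraries and DDD86481 replicate 2 the lowest, with the IMP1088 libraries between them. The difference between the inhibitors was -0.02 (-0.32 to 0.28). HERPUD1, which works in ER-associated degradation, was at 254, 245 and 277 CPM with IMP1088, 343, 202 and 233 with DDD86481 and 83.6, 74.1 and 89.0 with DMSO, and differed by -0.01 (-0.29 to 0.28). All 19 ER chaperones and ATF6 targets had an interval within 1.5-fold, with point differences from -0.08 to 0.08. Against DMSO 12 of the 19 rose with IMP1088 and 11 with DDD86481, beside 16.3% and 17.8% of all genes. The median of the list moved between -0.11 without DDD86481 replicate 2 and 0.13 without DDD86481 replicate 1, so its sign rests on single libraries.

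Promoter sequence is shown for some of the chaperone genes that hold the ER stress element, which most of the chaperone-list promoters searched did not. ATF6 and the CCAAT-binding factor NF-Y are known to act through this site. Windows come from RefSeq promoters on GRCh38.p14, upstream of the gene start and written 5′ to 3′ on the gene's strand, and capitals mark the match to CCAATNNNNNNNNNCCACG on either strand.
HSPA5, chr9:125241371-125241429, minus strand: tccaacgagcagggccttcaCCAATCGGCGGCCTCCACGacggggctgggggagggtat
HSP90B1, chr12:103930301-103930359, plus strand: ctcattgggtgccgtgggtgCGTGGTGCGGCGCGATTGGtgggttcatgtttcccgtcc
CALR, chr19:12938364-12938422, plus strand: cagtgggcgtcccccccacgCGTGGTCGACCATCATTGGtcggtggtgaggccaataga
The match ends 48 bases before the start in HSPA5, 71 in HSP90B1, which holds 2 matches of which 1 is shown, and 207 in CALR. It stood in 22 of 27305 promoters (0.0806%), and in 6 of the 18 chaperone-list promoters that could be matched by symbol. HSP90B1, the ER form of Hsp90, rose against DMSO by 0.39 ± 0.12 with IMP1088 (adjusted p = 0.0144) and 0.37 ± 0.12 with DDD86481 (adjusted p = 0.0185), while CALR, encoding the lectin chaperone calreticulin, was at 0.13 ± 0.10 with each and did not pass. Between the inhibitors HSP90B1 differed by 0.02 (-0.22 to 0.26) and CALR by -0.01 (-0.21 to 0.20). A match is a description of these letters and shows no binding.

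The ATF4 and CHOP branch of the stress response did not separate the inhibitors either. TRIB3, a pseudokinase induced by ATF4 and CHOP, was at 85.8, 78.4 and 118 CPM with IMP1088, 123, 64.3 and 103 with DDD86481 and 21.4, 28.2 and 23.2 with DMSO, a difference between the inhibitors of -0.04 (-0.41 to 0.33). DDIT3, the gene of the stress factor CHOP, was at 55.2, 42.7 and 47 CPM with IMP1088, 57.2, 30.6 and 40.8 with DDD86481 and 14.3, 10.1 and 18.1 with DMSO, and differed by 0.17 (-0.23 to 0.58). As with HSPA5, DDD86481 replicate 1 was the highest inhibitor library for both genes and DDD86481 replicate 2 the lowest. ATF4 itself differed by 0.06 (-0.22 to 0.34), ATF3 by 0.10 (-0.45 to 0.66), XBP1 by 0.03 (-0.23 to 0.28) and the glutathione-degrading enzyme CHAC1 by -0.20 (-0.82 to 0.42). ASNS, asparagine synthetase, was under 1 CPM in all 9 control libraries. Of 20 genes in the list, 17 were bounded within 1.5-fold and all 20 within 2-fold, with a median difference of -0.04. Amino acid transporters (median -0.09, 11 tested), enzymes of serine, asparagine and proline synthesis (-0.07, 12 tested) and XBP1 targets (-0.03, 25 tested) had medians below 0, and each turned positive, to between 0.12 and 0.13, without DDD86481 replicate 1.

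Of the 24 sterol genes tested, 16 rose with IMP1088 and 17 with DDD86481 against DMSO, and for HMGCS1 and INSIG1 replicate 1 was the highest library of each inhibitor. Of all genes 16.3% and 17.8% rose. HMGCS1, an early enzyme of cholesterol synthesis, was at 87.6, 65.2 and 68.8 CPM with IMP1088, 94.2, 69.7 and 69.2 with DDD86481 and 35.1, 34.7 and 29.3 with DMSO. INSIG1, a brake on SREBP processing, was at 85.1, 59.5 and 46.3 CPM with IMP1088, 80.6, 61.7 and 50.8 with DDD86481 and 25.7, 18.5 and 17.9 with DMSO. The gap between replicate 1 and the others within an inhibitor was thus larger than the gap between the inhibitors, which was -0.07 (-0.38 to 0.24) for HMGCS1 and -0.02 (-0.44 to 0.40) for INSIG1. All 24 genes of sterol synthesis and uptake were bounded within 1.5-fold, with a median of -0.03. TM7SF2, a sterol reductase, was at 13, 12.2 and 13 CPM with IMP1088 and 14, 15.8 and 16.1 with DDD86481. The groups did not overlap, which 378 genes (2.64%) showed in this direction, and the difference of -0.26 (-0.49 to -0.03) had an adjusted p of 1. In the fatty acid list the fitted difference was below 0 for all 11 genes tested, among them FASN, fatty acid synthase (-0.15, -0.61 to 0.32), and SCD, a desaturase (-0.11, -0.55 to 0.32). Their median was -0.11, and ran from -0.31 without IMP1088 replicate 1 to -0.03 without DDD86481 replicate 1. Over all genes 48.5% of fitted differences were above 0.

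Of the 20 immediate early genes tested, 12 rose with IMP1088 and 11 with DDD86481 against DMSO, and FOS and FOSB spread widely between replicates, in the same order in both inhibitor groups. Of all genes 16.3% and 17.8% rose. FOS, a subunit of AP-1, was at 102, 83.2 and 35.5 CPM with IMP1088, 133, 70.5 and 23.7 with DDD86481 and 12.4, 12.8 and 9.85 with DMSO. In both inhibitor groups replicate 1 was highest and replicate 3 lowest. FOSB, another AP-1 subunit, was at 16.7, 12.7 and 7.38 CPM with IMP1088 and 21.8, 10.1 and 4.30 with DDD86481, in the same order of replicates, against 0.564, 0.966 and 0.796 with DMSO. EGR1, a zinc finger factor induced by ERK signalling, was at 577, 780 and 503 CPM with IMP1088, 850, 609 and 399 with DDD86481 and 219, 219 and 153 with DMSO. The differences between the inhibitors were -0.04 (-0.88 to 0.80) for FOS, 0.03 (-0.70 to 0.76) for FOSB and 0.00 (-0.47 to 0.47) for EGR1. SQSTM1, an autophagy receptor, was by contrast tight, at 1365, 1321 and 1214 CPM with IMP1088 and 1305, 1298 and 1289 with DDD86481 against 712, 664 and 708 with DMSO, and differed by 0.00 (-0.19 to 0.20).

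**Figure D4:**
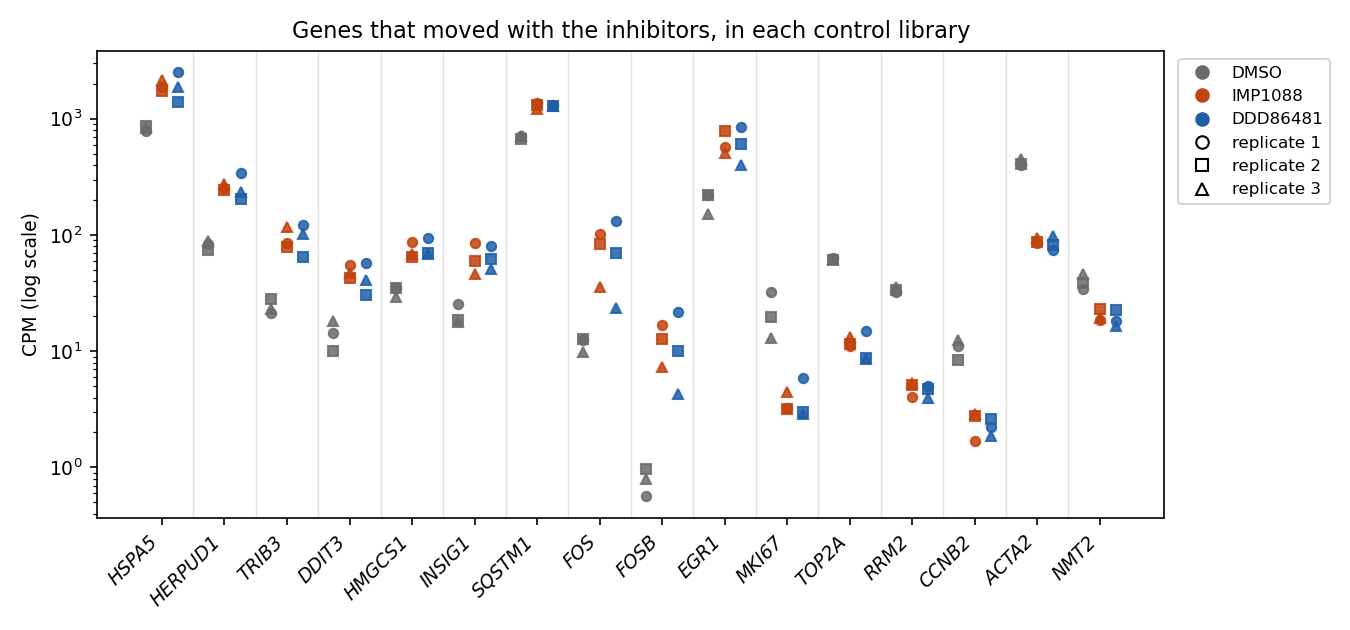
CPM (log axis) of 16 genes in each of the 9 control libraries, with colours for DMSO, IMP1088 and DDD86481 and symbols for replicate numbers. All IMP1088 and DDD86481 libraries lie on the same side of DMSO for each gene, and the 2 inhibitor groups overlap for each.

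All 31 mitosis genes were lower than with DMSO at an adjusted p under 0.05 with IMP1088 and with DDD86481, beside 17.4% and 18.7% of all genes, with median log2 changes of -2.42 and -2.52. TOP2A, the topoisomerase of dividing cells, was at 11.2, 11.5 and 13.2 CPM with IMP1088, 15, 8.80 and 8.65 with DDD86481 and 63.5, 60.9 and 62.2 with DMSO, and differed by 0.14 (-0.21 to 0.50) between the inhibitors. MKI67, which encodes the proliferation marker Ki-67, was at 3.26, 3.21 and 4.42 CPM with IMP1088, 5.90, 3.03 and 2.90 with DDD86481 and 32.2, 19.8 and 12.9 with DMSO, with a difference of -0.12 (-0.78 to 0.55). RRM2, a ribonucleotide reductase subunit, was at 4.06, 5.12 and 5.29 CPM with IMP1088, 5.01, 4.71 and 3.97 with DDD86481 and 32.6, 33.5 and 36.0 with DMSO, with a difference of 0.09 (-0.27 to 0.45). AURKB, the kinase of the chromosomal passenger complex, was the mitosis gene with the smallest p. It was at 0.753, 1.11 and 0.971 CPM with IMP1088, 0.574, 0.672 and 0.608 with DDD86481 and 5.40, 4.99 and 6.52 with DMSO. Its inhibitor groups did not overlap, which 387 genes (2.7%) showed in this direction, and the difference of 0.62 (0.04 to 1.2) had an adjusted p of 1. At these levels 11 of the 31 were bounded within 1.5-fold and 25 within 2-fold.

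Mitosis genes often share the cell cycle homology region, the letters TTTGAA bound by the MuvB complex, and 14 of the 26 mitosis promoters that could be matched held it on either strand within 250 bases before the start, against 3704 of all 27305 promoters (13.6%). CCNB2, encoding cyclin B2, is shown because its match lies close to the start, between 29 and 24 bases before it, with capitals marking the match.
CCNB2, chr15:59105097-59105142, plus strand: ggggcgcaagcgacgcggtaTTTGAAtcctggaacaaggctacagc
CCNB2 was at 1.71, 2.76 and 2.87 CPM with IMP1088, 2.24, 2.63 and 1.87 with DDD86481 and 11, 8.41 and 12.4 with DMSO, and differed by 0.13 (-0.36 to 0.62) between the inhibitors.

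**Figure D5:**
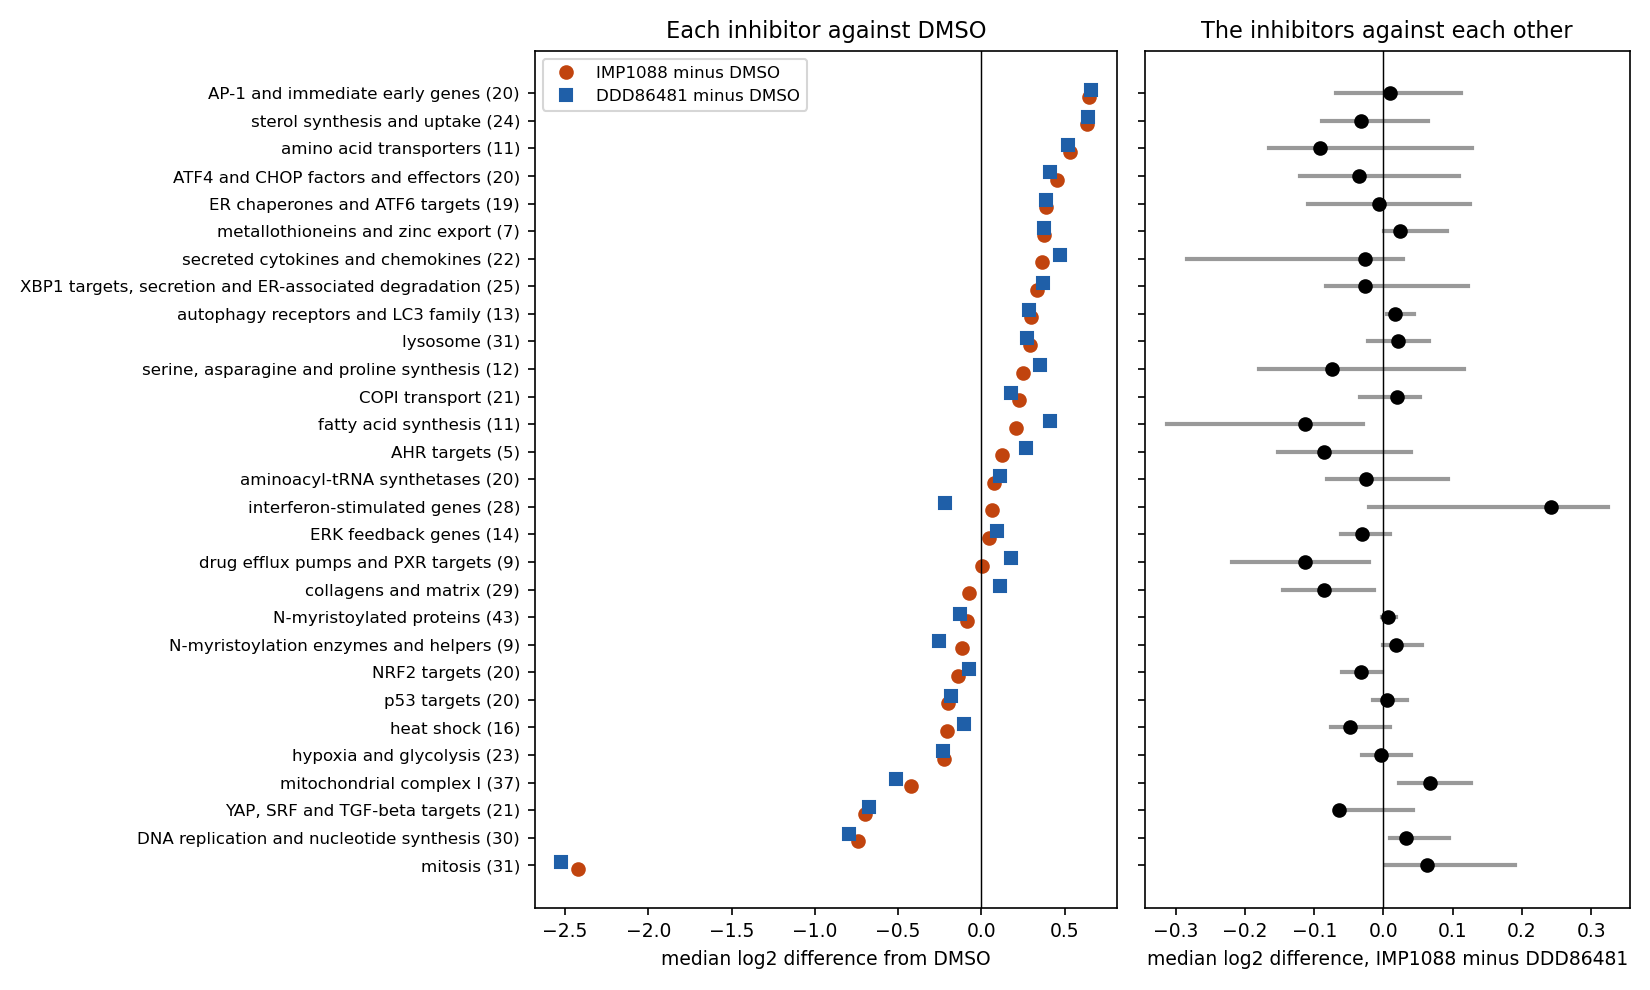
Left, median log2 difference from DMSO of each gene list with 5 or more genes tested, cell type markers left out, with IMP1088 (circles) and DDD86481 (squares), with the number of genes tested in brackets. Right, median log2 difference of IMP1088 minus DDD86481 (points) and its range over the alternatives tried, libraries left out included (grey lines). The medians run from mitosis at -2.42 and -2.52 to AP-1 genes at 0.65 and 0.65, lie on opposite sides of 0 for interferon-stimulated and collagen genes, and of the lists drawn interferon-stimulated genes have the largest median between the inhibitors, 0.24, with a range that crosses 0.

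ACTA2 fell with both inhibitors, while of the 29 collagen and matrix genes 6 rose and 9 fell with IMP1088 and 9 rose and 7 fell with DDD86481 against DMSO, beside 16.3% and 17.4% of all genes with IMP1088 and 17.8% and 18.7% with DDD86481. ACTA2, smooth muscle actin, was at 85.2, 86.5 and 95.1 CPM with IMP1088, 75, 82.6 and 97.3 with DDD86481 and 401, 411 and 449 with DMSO. Its log2 changes against DMSO were -2.24 ± 0.12 (adjusted p = 1.22e-10) and -2.30 ± 0.12 (adjusted p = 9.35e-11), and the difference between the inhibitors was 0.06 (-0.17 to 0.30). Of the 29 collagen and matrix genes, 0 passed between the inhibitors and 28 had a fitted difference below 0. The exception was POSTN, the matrix protein periostin, at 0.03 (-0.22 to 0.28). Over all genes 48.5% of fitted differences were above 0. The median was -0.09, and stayed between -0.15 and -0.01 in every alternative run. COL1A1, the chain of type I collagen, was at 9606, 8219 and 8166 CPM with IMP1088 and 10652, 7757 and 8958 with DDD86481, which overlap, a difference of -0.07 (-0.44 to 0.29). FN1, fibronectin, was at 6280, 4477 and 4126 CPM with IMP1088 and 6264, 5577 and 6014 with DDD86481, a difference of -0.26 (-0.79 to 0.27). COL8A1 was the 1 member of 29 without overlap, beside 2.64% of all genes in this direction, at 99.4, 97.1 and 98.6 CPM against 113, 102 and 111, with a difference of -0.14 (-0.35 to 0.07).

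Interferon-stimulated genes had the largest median difference of the lists with 5 or more genes tested, and it rested on 1 library. Of the 28 tested, 0 passed and 26 had a fitted difference above 0, beside 48.5% of all genes, with a median of 0.24. IFIT1, an antiviral RNA-binding protein, was at 24.8, 15 and 15.3 CPM with IMP1088, 11.1, 14.1 and 13.5 with DDD86481 and 12.6, 13.8 and 17.2 with DMSO. IMP1088 replicate 1 was the high library, and IMP1088 replicates 2 and 3 lay within the range of DMSO. The difference of 0.51 (0.08 to 0.94, unadjusted p = 0.0224, adjusted p = 1) was the largest of any gene at 10 CPM or more. MX1, an antiviral GTPase, was at 9.03, 3.65 and 3.16 CPM with IMP1088 and 2.35, 4.65 and 3.08 with DDD86481, and IFI44L at 6.52, 2.45 and 1.89 against 2.30, 2.18 and 2.20. For both, IMP1088 replicate 1 was again the high library and the other 5 overlapped. Without it the median of the list was -0.02. In senescent cells, in libraries that share none with these, the list's median was 0.31 and 24 of 28 fitted differences were above 0, with 0 genes past the threshold, and it stayed between 0.18 and 0.42 when any 1 senescent library was left out. The summed level of the list overlapped in control cells, from 610 to 809 CPM with IMP1088 and from 597 to 662 CPM with DDD86481. In senescent cells it ran from 452 to 458 CPM with IMP1088 and from 415 to 446 CPM with DDD86481.

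Genes with the smallest unadjusted p were mostly of low expression, and all had an adjusted p of 1. VTN, the plasma and matrix protein vitronectin (chr17:28367284-28370307, GRCh38.p14), had the smallest, 0.00144, at 0.652, 0.445 and 0.826 CPM with IMP1088 and 0.209, 0.112 and 0.187 with DDD86481 against 0.443, 0.402 and 0.697 with DMSO, a difference of 1.86 (0.80 to 2.92). The IMP1088 libraries thus overlapped DMSO, and all DDD86481 libraries lay below it. The DDD86481 values are close to the level of 3 counts, which is 0.134 to 0.168 CPM in the 6 libraries. STXBP2, a syntaxin-binding protein of granule exocytosis (chr19:7629793-7647873), was at 2.16, 2.89 and 3.11 CPM with IMP1088, 4.64, 3.70 and 4.07 with DDD86481 and 3.71, 3.70 and 4.38 with DMSO, a difference of -0.60 (-0.96 to -0.25). OSR2, a zinc finger factor of skeletal and limb development, was at 11.4, 7.62 and 9.37 CPM with IMP1088, 6.26, 6.67 and 6.08 with DDD86481 and 7.46, 6.64 and 6.02 with DMSO, a difference of 0.58 (0.21 to 0.95). LOC100507437 (0.64), LINC00920 (0.90) and ACYP1, an acylphosphatase (0.85), were the others with a higher level with IMP1088. On the lower side were TSPOAP1-AS1 (-1.44) and LRRK2, a kinase (-1.03), and ALOXE3 and CYP19A1, which were at 0 in all 3 IMP1088 libraries and at no more than 0.157 and 0.168 CPM with DDD86481, so that no fold is given. There were 10 genes at 10 CPM or more with an unadjusted p under 0.05. ADPRM, a manganese-dependent phosphatase of ADP-ribose, had the smallest of them, at 12.3, 13.7 and 13.3 CPM with IMP1088 and 8.77, 10.9 and 8.46 with DDD86481, a difference of 0.48 (0.15 to 0.81).

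Genes that often report effects of a compound on other proteins were examined, from lists chosen with earlier results known. CYP1B1, induced through the aryl hydrocarbon receptor, was at 84.9, 91.7 and 84.0 CPM with IMP1088 and 98.6, 82.0 and 82.0 with DDD86481, a difference of -0.01 (-0.30 to 0.28), and TIPARP, another of its targets, differed by -0.09 (-0.37 to 0.20). CYP1A1 was at 0 or close to it in all 9 libraries. Among NRF2 targets, 16 of 20 were bounded within 1.5-fold. NQO1, a quinone reductase, differed by -0.12 (-0.34 to 0.10), and HMOX1, haem oxygenase, by -0.07 (-0.70 to 0.56). The metallothionein MT2A differed by 0.00 (-0.27 to 0.27), but its list was poorly bounded. Of the 7 metallothionein and zinc export genes tested, 4 were bounded within 1.5-fold and 4 within 2-fold. Their point differences ran from -0.50 to 1.88. In the higher direction 1 of the 7 did not overlap, beside 2.7% of all genes. All 20 p53 targets were bounded within 1.5-fold, with CDKN1A, the CDK inhibitor p21, at 0.02 (-0.21 to 0.24) and MDM2, the ligase of p53, at -0.06 (-0.34 to 0.22). HSPA1A, an inducible Hsp70 whose reads can be shared with its near-identical copy HSPA1B, was at 17.3, 18.2 and 17.7 CPM with IMP1088 and 22, 19.9 and 20.2 with DDD86481, without overlap, and differed by -0.22 (-0.75 to 0.31). Over all genes 2.64% lay without overlap in this direction. The efflux pump ABCC3 was at 7.12, 6.15 and 8.11 CPM with IMP1088 and 10.2, 8.96 and 9.81 with DDD86481, also without overlap, a difference of -0.44 (-0.77 to -0.10, adjusted p = 1), and ABCB1, another pump, differed by 0.45 (-0.27 to 1.17) and by -0.02 without IMP1088 replicate 1. Of secreted factors, IL6 differed by 0.07 (-0.58 to 0.72), the neutrophil attractant CXCL8 by -0.06 (-0.68 to 0.56) and IL1B by 0.01 (-0.44 to 0.45). Of the 22 secreted cytokines and chemokines tested, 9 were bounded within 1.5-fold and 17 within 2-fold. Their point differences ran from -0.42 to 0.70, with 7 of the 22 above 0, beside 48.5% of all genes.

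Small differences followed exonic length, the merged length of all annotated exons of a gene, which is not the length of 1 transcript. Over 12196 genes at 1 CPM or more with a known exonic length, the median difference was 0.04 in the shortest 3051 genes and -0.04 in the longest 3049, and the correlation of the difference with log10 length was r = -0.25 (Spearman's rho = -0.33, across genes of the same 6 libraries, as a description). The libraries themselves differed in this respect. The correlation of a gene's log2 level, centred on its mean of the 9 control libraries, with length was 0.274, 0.042 and -0.002 in the IMP1088 libraries, 0.260, 0.177 and 0.305 with DDD86481 and 0.140, -0.134 and -0.458 with DMSO. Subunits of mitochondrial complex I had a median exonic length of 2708 bases against 5331 over all genes tested. Of their 37 fitted differences 28 were above 0, beside 48.5% of all genes, with a median of 0.07. In that direction 4 of 37 did not overlap, beside 2.7% of all genes. The collagen and matrix genes, at 6758 bases, had the median given above. Not all lists followed length, since fibroblast markers, also at 6758 bases, had a median of 0.02 and secreted cytokines and chemokines, at 2512 bases, one of -0.03. In senescent cells the median was -0.06 for complex I and -0.09 for the collagen and matrix genes. It was -0.10 there for fibroblast markers and -0.13 for secreted cytokines and chemokines. The part of length in these list medians was not tested.

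The same pair was looked up in senescent cells. There 0 of 14341 genes (0%) passed between IMP1088 and DDD86481, with 570 (3.97%) at an unadjusted p under 0.05. In a fit of only those 6 libraries with the replicate number as a block, chosen after seeing the data, 13 passed, 2 higher and 11 lower with IMP1088. A term for the difference between states passed 0 genes, with 253 (1.76%) at an unadjusted p under 0.05. Of the 141 genes at an unadjusted p under 0.05 in control cells, 77 (54.6%) had the same sign in senescent cells, against 53.6% of all genes. Of them, 13 also reached that unadjusted level in senescent cells, 8 in the same direction. CEP95, a centrosomal protein, was one, with differences of 0.21 in both states, and ADPRM another, with 0.48 and 0.41. The fitted difference of OSR2 had the other sign in senescent cells, -1.43. Across genes at 1 CPM or more the differences in the states had a Pearson r of 0.134 (n = 11663 genes), and over all 14341 genes one of 0.0328.

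The libraries of the comparison held between 16143716 and 20546199 counts, and those of control DMSO up to 23189950. Intervals cover the spread between libraries, and reads carried no molecular identifiers, so the level of 3 counts covers counting error only. All 13 fibroblast markers passed the filter and were bounded within 1.5-fold, among them TBX4, TBX5 and FOXF1 of lung mesenchyme. Of the 5 leukocyte markers 1 was tested, and their sum was 0.356 to 0.552 CPM with IMP1088, 0.365 to 0.840 with DDD86481 and 0.443 to 0.746 with DMSO, with CD3E at 0 in all 9 libraries. Of the 6 epithelial markers 4 were tested, among them the keratins KRT8, KRT18 and KRT19, with sums of 54.4 to 65.9 CPM with IMP1088, 54.8 to 62.5 with DDD86481 and 104 to 148 with DMSO, while KRT5 was at 0. Of the 4 endothelial markers 3 were tested, with sums of 2.82 to 3.41 CPM with IMP1088, 3.24 to 3.97 with DDD86481 and 1.17 to 1.73 with DMSO. One of them, PECAM1, did not overlap between the inhibitors, at 0, 0.0445 and 0.0486 CPM with IMP1088 and 0.313, 0.112 and 0.0935 with DDD86481. Over all genes 2.64% lay without overlap in this direction. All of these PECAM1 values but 0.313 were below the level of 3 counts. Counts of genes that overlap a neighbour are uncertain, since the strand setting of the counting is not given. Among genes named above, over 10% of exonic bases were shared with another gene on the opposite strand for HMGCS1 (37.7%), COPB2 (34.1%), ACTA2 (29.1%), DDIT3 (27.2%), SQSTM1 (21.0%), NQO1 (19.4%), ARF4 (18.5%), KRT18 (17.1%), ACYP1 (15.2%), METAP1 (11.6%), TSPOAP1-AS1 (11.8%) and CYP1B1 (11.2%), and on the same strand for ASNS (49.3%), HSPA1B (36.6%), STXBP2 (30.4%) and VTN (17.3%).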

How the data were processed

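The authors sequenced poly(A)-selected libraries of IMR90 ER:RAS cells, made with a directional kit, in single-end reads and deposited raw counts per gene symbol for 18 libraries, of which every sample column was used (0 unused). The study's methods name TopHat on hg19 with Ensembl annotation, whereas the submitters' processing notes name hg38, DRAGEN, STAR 2.7.8a and DESeq2 1.32.0 without a role, so the build behind the deposited counts is not settled. DDD86481 libraries are called PCLX001 in the table.

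Groups came from the labels. filterByExpr kept 14341 of 28266 gene rows (99.962% of counts). TMM scaling was followed by the quasi-likelihood test of edgeR 4.0.16 in 1 fit of 18 libraries in 6 groups, with Benjamini-Hochberg adjustment. Standard errors and 95% intervals were derived from the F statistic. The test was also run on simulated data. Those libraries were drawn independently with no effect of replicate number, so that run cannot speak to such an effect. Alternatives were upper quartile scaling, DESeq2, other filters, fewer libraries, a replicate block, a 1.5-fold test and each library left out. Named genes were the 5 with the smallest p in each direction, since 0 passed, and a fixed set of pathway genes, others named being members of the lists or chosen after their values were seen. Members and lists were chosen with earlier results of these data known. Exonic lengths and overlaps came from GENCODE on GRCh37.

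Deviations of same-numbered IMP1088 and DDD86481 libraries from their group means had r of 0.101, 0.270 and 0.129, all over 0.1, so the numbers were taken to pair them, from these correlations alone. The main fit, with the intervals given above, used the group only and left this pairing out. With the replicate block in the fit of 18 libraries, 10715 genes had an interval within 1.5-fold and 12647 within 2-fold. Replicates differed by more than sampling noise (chi-square per gene of at least 6.49).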

Additional observations from a re-analysis of the deposited data

How the results depend on the processing

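Between IMP1088 and DDD86481 in control cells 0 genes passed under every alternative run and with each library left out, and 736 values of the named genes under alternatives also held 0 past the threshold. With the replicate block 0 genes passed, with 160 at an unadjusted p under 0.05, and with only the 6 libraries and the block, an alternative chosen after seeing the data, 0 passed and 533 were at that level. That fit passed 13 genes between the inhibitors in senescent cells and 3277 for DDD86481 against DMSO, and changed no other count of genes past the threshold by over 1.5 times. Testing without a filter on low counts passed 1 gene in senescent cells. Fits of only the groups compared passed 2716 genes for IMP1088 and 2842 for DDD86481 against DMSO, and a test against a 1.5-fold change passed 730 and 727. With each library left out the counts against DMSO ran from 3505 (without IMP1088 replicate 1) to 5892 (without DMSO replicate 1) for IMP1088, and from 3773 (without DDD86481 replicate 1) to 6317 (without DMSO replicate 1) for DDD86481. In control cells, in senescent cells and for the difference between states the left-out fits passed 0. Intervals within 1.5-fold then numbered 9573 to 10005 and within 2-fold 12240 to 12297. The cause of these changes was not tested. Of 506 list medians under alternatives, some of them chosen after seeing the data, 17 moved by more than the spread between replicates. Under 1 CPM the intervals leave differences of 2-fold open for most genes.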
